A study of Homo sapiens with 6 samples.

Results

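The 49 genes examined here encode nucleic acid sensors, signal factors and antiviral effectors of the interferon system. They were chosen by a list of gene names, drawn up with earlier results of these data known. The list was matched to the 58735 genes of a deposited RNA-seq table from PANC-1, a long-established human cell line of pancreatic ductal adenocarcinoma. All 49 were found in the table. By role they are 10 sensors, 4 STAT/IRF factors and 35 antiviral effectors. The study compared 3 samples that received control siRNA (si-NC) with 3 samples that received siRNA against METTL16 (si-METTL16), a methyltransferase that writes N6-methyladenosine on RNA. The comparison asks which transcripts differ once METTL16 is silenced. According to the methods the cells were stable transfectants and each group held biological triplicates. All 6 samples came from this single cell line, and no added interferon is named for them. For stable lines in general, the methods name lipid transfection, lentiviral infection and puromycin selection. Which of these the sequenced cells received is not stated. The control samples carry control siRNA in their titles and in the methods, while their transfection label reads WT. The siRNA sequence used for these samples is not named in the sources used here, and the methods speak of short hairpin RNA for silencing in other assays of the same line.

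Cells detect foreign or misplaced RNA with helicases such as RIG-I and MDA5, with the kinase PKR and with oligoadenylate synthases, and detect DNA with cGAS and IFI16. The helicases signal through MAVS and cGAS signals through STING to kinases that activate interferon regulatory factors, which switch on type I and type III interferon genes. Secreted interferon binds its receptor, the JAK kinases phosphorylate STAT proteins, and these join IRF9 in a complex that binds the interferon-stimulated response element in the promoters of interferon-stimulated genes. Many of these genes are also transcribed at a low level in resting cells. Pancreatic tumours and tumour cell lines are known to vary in this resting level.

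Raw counts summed to between 15725298 and 18054436 per sample. METTL16 itself was at 91.5, 96.7 and 101 CPM (counts scaled to a common total, here after correction by the trimmed mean of M-values, TMM) in si-NC samples and at 34.8, 33.9 and 34.9 CPM in si-METTL16 samples, which is 35.9% of the control level. A gene was tested where its counts passed the filter described with the processing, which left 15089 genes. Fold changes and p-values are those of the quasi-likelihood test of edgeR. P-values were adjusted by the Benjamini-Hochberg method over all 15089 genes. Standard errors were derived as the log2 fold change divided by the square root of the F statistic of that test. The 95% confidence intervals were built from these standard errors. An adjusted p under 0.05 was called. Fold changes are si-METTL16 over si-NC. The epithelial list (7 genes, keratins, EPCAM, CDH1 and SOX9) was detected with at least 10 counts in every sample, in keeping with the labelled cell type, and summed to 3060 to 4130 CPM in si-NC and 3280 to 3580 CPM in si-METTL16 samples. Most of this sum was KRT8 and KRT18, which were not called, and EPCAM was not called either. KRT7, KRT19, CDH1 and SOX9 of the same list fell, with log2 fold changes of -0.84, -1.40, -1.09 and -0.25. Their adjusted p were 0.0117, 0.00111, 0.00594 and 0.00987. Of 9 leukocyte markers, CD3E, MS4A1 and CLEC4C were at 0 counts in every sample, and the summed level of the list was 10.6 to 11.4 CPM in si-NC and 10.7 to 12.4 CPM in si-METTL16 samples. Within it CD68 rose (log2 fold change 0.67, adjusted p = 0.00928) and CD14 fell (log2 fold change -1, adjusted p = 0.0409), and ITGAM, lower in every silenced than in any control sample, missed the threshold (log2 fold change -1.03, adjusted p = 0.0574). Of 3 endothelial markers none reached 10 counts in every sample, and their sum was at most 0.913 CPM. The fibroblast list of 5 genes summed to 331 to 383 CPM in si-NC and 815 to 855 CPM in si-METTL16 samples, nearly all of it COL1A1, which rose (log2 fold change 1.27, adjusted p = 9.39e-05). COL3A1 rose as well (log2 fold change 0.69, adjusted p = 0.00731), while COL1A2 and DCN were at 2 counts or fewer in every sample. The part of these marker differences in the values of the members was not tested.

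In METTL16-silenced cells, sensors and antiviral effectors made up all of the members that fell, and the members that rose were both STAT/IRF factors. Of the 49 members, 38 were tested, 10 were too low to test and 1 was below detection. In the tested set, 18 fell (47.4%) and 2 rose (5.26%), while 18 did not pass the test. Among all 15089 tested genes, 17.5% were called lower and 18.4% were called higher. All si-METTL16 samples lay below all si-NC samples for 22 members, an order found for 25.2% of all tested genes. They lay above for 2 members, against 25.7% of all tested genes. Log2 fold changes were negative for 33 of the 38 tested members (86.8%) and for 50.5% of all tested genes. The median was -0.43 over the 38 tested members, with a range from -1.39 to 0.59, and -0.004 over all tested genes. Of the 38, 36 had at least 10 counts in every sample of both groups, so that few were tested through their si-NC counts alone. In RNA from whole cultures, fewer cells that express a gene and less of its RNA per cell cannot be told apart.

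**Figure D1:**
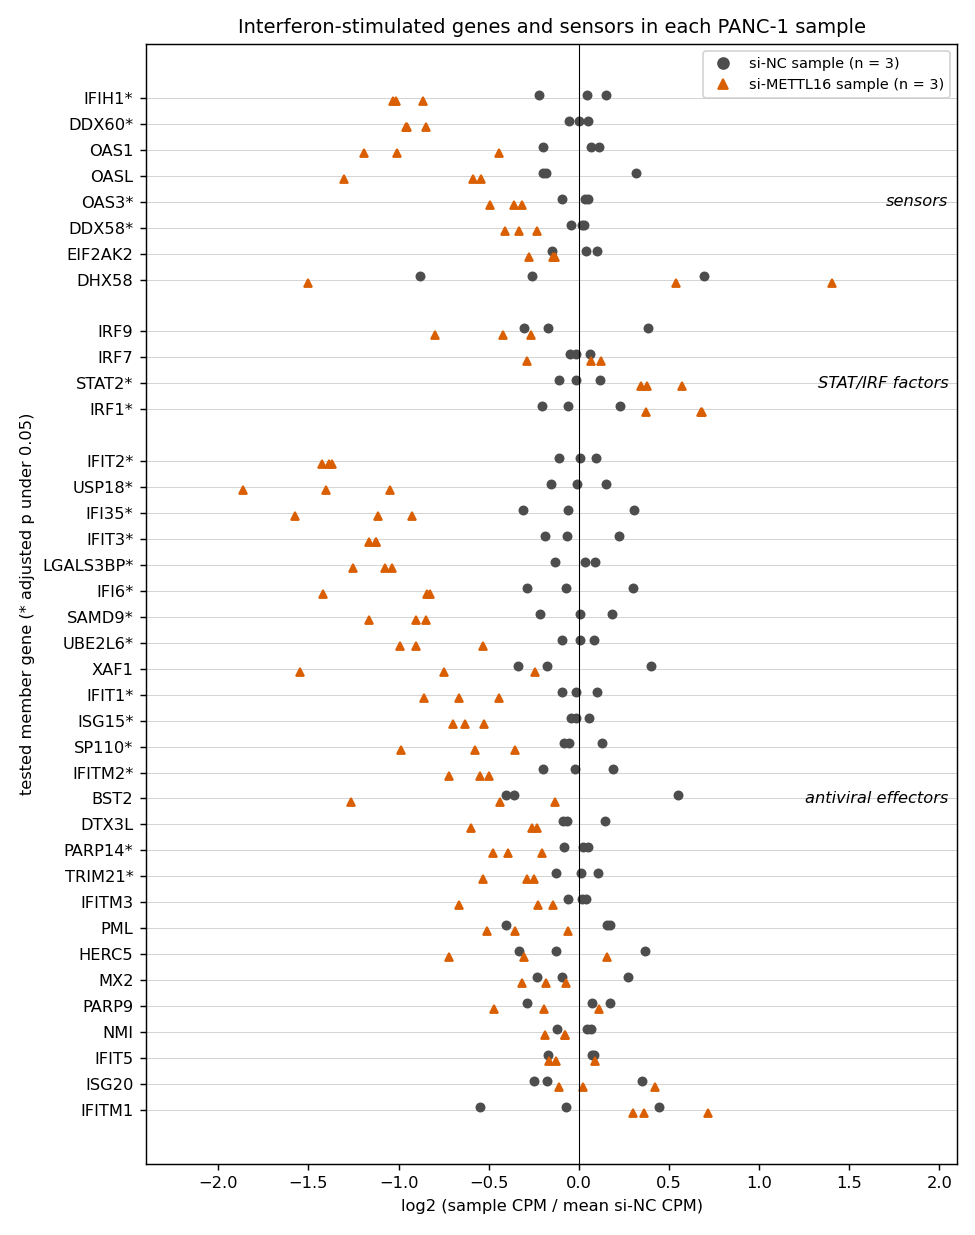
Each row is a tested member and each point a sample, placed at log2 of its CPM over the mean CPM of the si-NC samples (circles si-NC, triangles si-METTL16, n = 3 each; asterisk, adjusted p under 0.05). The triangles lie left of all circles for 22 members, among them IFIT2, USP18 and IFIH1, and right of all circles for STAT2 and IRF1.

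Among the sensors, 4 of the 8 tested genes fell (50%, against 17.5% of all tested genes) and none rose. The largest decreases were in IFIH1 and DDX60, which were left at 51.1% and 52.95% of the control level. IFIH1 (chr2:162267079-162318703 in the deposited table) encodes MDA5, the helicase that binds long double-stranded RNA. It was at 22.9, 19.03 and 24.6 CPM in si-NC samples and 10.8, 10.96 and 12.2 CPM in si-METTL16 samples (log2 fold change -0.97, SE 0.13, adjusted p = 0.00134). The highest silenced sample stayed well under the lowest control sample. DDX60 (chr4:168216293-168318807), a helicase that acts with RIG-I, was at 8.58, 8.31 and 7.99 CPM in si-NC and 4.27, 4.62 and 4.28 CPM in si-METTL16 samples (log2 fold change -0.92, SE 0.13, adjusted p = 0.00191). The samples of each group lay close together and the groups were far apart. DDX58 (chr9:32455705-32526324), which encodes RIG-I, the sensor of short double-stranded RNA with a triphosphate end, had a smaller change. Its values were 53.1, 55.5 and 55.9 CPM in si-NC and 43.6, 46.7 and 41.2 CPM in si-METTL16 samples (log2 fold change -0.32, SE 0.077, adjusted p = 0.0161). The groups did not overlap, but the call was lost without si-NC replicate 3 (adjusted p = 0.0528). In GENCODE v44, 42.1% of the 50-base stretches of DDX58 transcripts also occur in a gene annotated on the same strand across it. Its reads could be split between the genes if the annotation used for counting held both.

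The remaining RNA sensors were the oligoadenylate synthases, PKR and LGP2. The synthases make a second messenger of antiviral defence. OAS3 (chr12:112938352-112973249), the member with the highest level per length among them, was at 31.2, 34.5 and 34.0 CPM in si-NC and 25.9, 26.7 and 23.6 CPM in si-METTL16 samples (log2 fold change -0.39, SE 0.089, adjusted p = 0.0137), again without overlap. OAS1 (chr12:112906777-112933222) had few counts, with 28, 35 and 35 counts in si-NC and 23, 13 and 17 counts in si-METTL16 samples. Its log2 fold change of -0.84 (95% confidence interval -1.52 to -0.16) missed the threshold with an adjusted p of 0.0577, although every silenced sample was below every control sample. It was called without si-METTL16 replicate 1 (adjusted p = 0.0431) and when genes needed 10 counts in every sample (adjusted p = 0.0379). OASL, a relative without synthase activity that acts on RIG-I, had 60, 42 and 44 counts in si-NC and 32, 18 and 34 counts in si-METTL16 samples (log2 fold change -0.77, SE 0.29, adjusted p = 0.0759). These groups did not overlap either, and the difference did not pass the test.

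EIF2AK2 (chr2:37099210-37157065) encodes PKR, which halts translation when it binds double-stranded RNA, and it was the most abundant sensor per length, at 15.4 ± 1.32 FPKM (count scaled by gene length and sample total, SD, n = 3) in si-NC cells. It was at 245, 235 and 207 CPM in si-NC and 207, 208 and 189 CPM in si-METTL16 samples (log2 fold change -0.18, SE 0.079, adjusted p = 0.114). The lowest control sample lay within the range of the silenced samples, and the difference did not pass the test, with a 95% confidence interval of -0.37 to 0.004. DHX58, which encodes LGP2, a RIG-I relative that modulates the other helicases, had 5, 15 and 8 counts in si-NC and 13, 3 and 26 counts in si-METTL16 samples (log2 fold change 0.59, SE 0.70, adjusted p = 0.546). The si-METTL16 samples held both the highest and the lowest count, and the sign turned to -0.13 without si-METTL16 replicate 3. The last sensors were too low to test. OAS2 had 2, 2 and 4 counts in si-NC and 5, 5 and 5 in si-METTL16 samples, and IFI16, a DNA sensor, had 0, 4 and 4 counts in si-NC and 3, 0 and 0 in si-METTL16 samples.

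Promoters of the members were searched for the core of the interferon-stimulated response element, GAAANNGAA, or its reverse complement TTCNNTTTC, on both strands. The windows are RefSeq promoters on GRCh38.p14 that run from 250 bases before to 50 bases after a gene start. The stretches below lie before the gene start of the called sensors that hold a match, are written in the direction of the gene, and have the match in capitals. The IFIH1 stretch is chr2:162318685-162318730 on the minus strand, the DDX60 stretch is chr4:168318772-168318830 on the minus strand and the OAS3 stretch is chr12:112938437-112938473 on the plus strand.
IFIH1: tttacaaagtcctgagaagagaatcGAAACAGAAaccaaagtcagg
DDX60: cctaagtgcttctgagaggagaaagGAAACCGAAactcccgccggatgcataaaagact
OAS3: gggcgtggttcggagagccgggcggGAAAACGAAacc
The match shown is the nearest before the start. It began 21 bases before the IFIH1 start, 53 bases before the DDX60 start and 12 bases before the OAS3 start. In all, the IFIH1 window held 4 matches before the start, and those of DDX60 and OAS3 held 2 each. The IFIH1 matches that begin at -164, -158 and -152 from the start each overlap the next, so they form a single repeated stretch. The DDX58 window held no match. A match is a description of letters and does not show that a factor binds there.

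All 4 STAT/IRF factors were tested, 2 rose (50%, against 18.4% of all tested genes) and none fell. Their median log2 fold change was 0.21. The difference between them and the other members was not tested. STAT2 (chr12:56341597-56360155), the partner of IRF9 in the factor that binds the response element, was at 41.9, 38.2 and 35.9 CPM in si-NC and 50.3, 49.2 and 57.5 CPM in si-METTL16 samples (log2 fold change 0.44, SE 0.10, adjusted p = 0.0123). All silenced samples were above all control samples, and the call held under each of the 13 alternative fits. IRF1 (chr5:132481609-132490798), a factor that interferon gamma and other signals induce and that activates an overlapping set of genes, was at 13.9, 15.3 and 18.8 CPM in si-NC and 25.6, 25.6 and 20.7 CPM in si-METTL16 samples (log2 fold change 0.58, SE 0.15, adjusted p = 0.0193). These groups did not overlap. With a replicate block the adjusted p was 0.0524, and without si-NC replicate 1 or 2 or si-METTL16 replicate 1 or 2 it lay between 0.0603 and 0.0623, so the call was lost in these 5 fits. The antisense gene IRF1-AS1 overlaps IRF1 exons by 2805 bases in GENCODE v44, and without strand in the counting their reads cannot be told apart.

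IRF9, the DNA-binding partner of STAT2, was at 8.40, 7.66 and 12.3 CPM in si-NC and 7.86, 5.45 and 7.07 CPM in si-METTL16 samples (log2 fold change -0.48, SE 0.23, adjusted p = 0.143). A single control sample was higher than the rest and the groups overlapped. The 95% confidence interval of -1.01 to 0.057 holds both no change and a decrease as large as that of several effectors. Of the 50-base stretches of IRF9, 19.1% occur in another gene on the same strand. IRF7, the factor that amplifies interferon production, was at 8.76, 8.31 and 8.10 CPM in si-NC and 9.14, 6.86 and 8.79 CPM in si-METTL16 samples (log2 fold change -0.02, SE 0.15, adjusted p = 0.93), with a 95% confidence interval of -0.37 to 0.33. The groups overlapped.

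Among the 35 antiviral effectors, 26 were tested, 14 fell (53.8%, against 17.5% of all tested genes) and none rose. Their median log2 fold change was -0.56. All si-METTL16 samples lay below all si-NC samples for 16 of them, an order found for 25.2% of all tested genes. The IFIT family binds the ends of foreign RNA and limits its translation. IFIT2 (chr10:89283694-89309276) had the lowest log2 fold change of all members. It was at 31.7, 29.8 and 27.6 CPM in si-NC and 11.3, 11.5 and 11.1 CPM in si-METTL16 samples (log2 fold change -1.39, SE 0.10, adjusted p = 0.000145), or 38.1% of the control level. IFIT3 (chr10:89327894-89340971), which stabilises IFIT1 on RNA, was at 15.98, 12.02 and 13.1 CPM in si-NC and 6.28, 6.28 and 6.12 CPM in si-METTL16 samples (log2 fold change -1.14, SE 0.14, adjusted p = 0.00114). The silenced samples of both genes were nearly identical to each other and far below the controls. IFIT1 (chr10:89392546-89406486), which recognises caps that lack a ribose methyl group, was at 27.7, 26.3 and 30.0 CPM in si-NC and 20.6, 15.4 and 17.7 CPM in si-METTL16 samples (log2 fold change -0.64, SE 0.13, adjusted p = 0.00711). IFIT5, which binds RNA with a triphosphate end, was at 21.3, 25.4 and 25.2 CPM in si-NC and 21.9, 25.5 and 21.4 CPM in si-METTL16 samples (log2 fold change -0.063, adjusted p = 0.702, 95% confidence interval -0.33 to 0.21). Thus 3 of the 4 family members, all in the same cluster on chromosome 10, passed the test, and the interval of the fourth holds no change. IFIT2 shares 524 exon bases (12.1% of its own) with a long noncoding RNA gene on the same strand. IFIT2 and IFIT3 also overlap exons of LIPA on the opposite strand by 65 and 94 bases.

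The genes of ISG15 conjugation fell at the modifier, the conjugating enzyme and the protease. ISG15 (chr1:1001138-1014540), a ubiquitin-like protein that is attached to newly made proteins, was at 54.5, 50.9 and 51.9 CPM in si-NC and 33.9, 36.4 and 32.4 CPM in si-METTL16 samples (log2 fold change -0.62, SE 0.08, adjusted p = 0.00128). Per length it was the most abundant called member, at 33.1 ± 1.16 FPKM in si-NC and 21.3 ± 1.23 FPKM in si-METTL16 cells (SD, n = 3 each). UBE2L6 (chr11:57551656-57568284), the conjugating enzyme, was at 9.59, 10.1 and 8.96 CPM in si-NC and 4.81, 6.60 and 5.12 CPM in si-METTL16 samples (log2 fold change -0.80, SE 0.16, adjusted p = 0.00818). USP18 (chr22:18149899-18177397), the protease that removes ISG15 and that also restrains the interferon receptor, was at 6.39, 5.78 and 7.13 CPM in si-NC and 1.77, 2.44 and 3.12 CPM in si-METTL16 samples (log2 fold change -1.39, SE 0.23, adjusted p = 0.00379). The groups of these 3 genes did not overlap, though the silenced samples of USP18 were spread widely. Of the 50-base stretches of USP18, 11.6% also occur in its copy USP41, which had 1 to 12 counts per sample. HERC5, the ligase that attaches ISG15, was at 6.98, 4.30 and 4.96 CPM in si-NC and 4.39, 6.03 and 3.28 CPM in si-METTL16 samples (log2 fold change -0.25, adjusted p = 0.522), and the groups overlapped. Its relative HERC6 had 0, 6 and 12 counts in si-NC and 7, 12 and 3 in si-METTL16 samples and was not tested.

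LGALS3BP, IFI35, IFI6 and SAMD9 had log2 fold changes between -1.18 and -0.97. LGALS3BP (chr17:78971238-78980109), a secreted glycoprotein that binds galectins, was at 99.5, 95.8 and 85.2 CPM in si-NC and 45.5, 39.3 and 44.4 CPM in si-METTL16 samples (log2 fold change -1.12, SE 0.092, adjusted p = 0.000252). IFI35 (chr17:43006725-43014456), a leucine zipper protein that pairs with NMI, was at 17.7, 11.6 and 13.8 CPM in si-NC and 7.56, 4.81 and 6.62 CPM in si-METTL16 samples (log2 fold change -1.18, SE 0.22, adjusted p = 0.00618). Its partner NMI was at 24.3, 23.9 and 21.3 CPM and 20.3, 21.9 and 21.9 CPM (log2 fold change -0.12, adjusted p = 0.379), with an interval of -0.34 to 0.11. IFI6 (chr1:27666061-27672218), a membrane protein that limits flavivirus replication, was at 13.7, 9.13 and 10.6 CPM in si-NC and 6.22, 4.17 and 6.29 CPM in si-METTL16 samples (log2 fold change -1.002, SE 0.22, adjusted p = 0.0118). SAMD9 (chr7:93099513-93118023), a poxvirus restriction factor, was at 22.4, 29.6 and 26.1 CPM in si-NC and 11.6, 13.9 and 14.5 CPM in si-METTL16 samples (log2 fold change -0.97, SE 0.14, adjusted p = 0.00206). For these 4 genes every silenced sample was below every control sample, and each call held in all 13 alternative fits. Of the 50-base stretches of IFI6, 16.4% occur in LINC02574 on the same strand.

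The interferon-induced transmembrane proteins, which block fusion of viral and cell membranes, fell at IFITM2 and did not pass the test at IFITM1 or IFITM3. IFITM2 (chr11:307631-315272, a span that covers IFITM1 in the deposited table) was at 14.97, 19.6 and 16.9 CPM in si-NC and 10.4, 11.7 and 12.2 CPM in si-METTL16 samples (log2 fold change -0.59, SE 0.13, adjusted p = 0.0137). IFITM3 (chr11:319669-327537), the member with the highest level per length at 95.1 ± 3.21 FPKM in si-NC and 74.7 ± 13.4 FPKM in si-METTL16 cells (SD, n = 3 each), was at 205, 208 and 194 CPM in si-NC and 183, 173 and 128 CPM in si-METTL16 samples (log2 fold change -0.33, SE 0.13, adjusted p = 0.0879). Its groups did not overlap, but a single silenced sample was far below the rest and the test did not pass. IFITM1 was at 2.31, 3.30 and 1.65 CPM in si-NC and 2.99, 3.98 and 3.12 CPM in si-METTL16 samples (log2 fold change 0.47, adjusted p = 0.243), with overlap. The difference between the members was not tested. Of the 50-base stretches of IFITM2, 14.6% occur in IFITM1 and 12.4% in IFITM3, so reads could be split between these genes.

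The remaining effectors that fell were SP110, PARP14 and TRIM21, and all 3 lost the call in some alternative fits. SP110 (chr2:230167293-230225729), a nuclear body protein, was at 10.5, 11.9 and 10.3 CPM in si-NC and 5.49, 8.53 and 7.29 CPM in si-METTL16 samples (log2 fold change -0.62, SE 0.18, adjusted p = 0.0335). PARP14 (chr3:122680618-122730840), an ADP-ribosyltransferase, was at 90.01, 91.9 and 83.8 CPM in si-NC and 76.8, 63.6 and 67.5 CPM in si-METTL16 samples (log2 fold change -0.35, SE 0.088, adjusted p = 0.0183). TRIM21 (chr11:4384897-4393696), a cytosolic antibody receptor and ubiquitin ligase, was at 32.7, 30.6 and 27.9 CPM in si-NC and 25.6, 24.9 and 21.1 CPM in si-METTL16 samples (log2 fold change -0.35, SE 0.11, adjusted p = 0.0427). No silenced sample reached a control sample in any of the 3. The SP110 exons overlap a long noncoding gene on the opposite strand by 1898 bases. Leaving out 1 sample at a time removed the call of SP110 in 5 fits, of PARP14 in 4 and of TRIM21 in all 6. The adjusted p reached 0.0934 for SP110 (without si-NC replicate 2), 0.0577 for PARP14 (without si-NC replicate 2) and 0.115 for TRIM21 (without si-NC replicate 1).

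The 12 tested effectors that were not called include IFIT5, HERC5, NMI, IFITM1 and IFITM3 above. DTX3L, a ubiquitin ligase, was at 40.2, 34.2 and 34.8 CPM in si-NC and 30.96, 30.4 and 24.03 CPM in si-METTL16 samples (log2 fold change -0.36, adjusted p = 0.062), with no overlap. It was called with DESeq2 (adjusted p = 0.0495) and with limma on FPKM (adjusted p = 0.0471). Its partner PARP9 had a log2 fold change of -0.16 and overlapping groups, and exons of the pair overlap by 139 bases on opposite strands. XAF1, an apoptosis factor, and BST2, which tethers budding virus, had log2 fold changes of -0.74 and -0.54 at 5 to 21 and 13 to 43 counts per sample, and their groups overlapped. XAF1 shares 38.3% of its exon bases with a transcript on the opposite strand. PML, the scaffold of nuclear bodies, MX2, a GTPase that restricts retroviruses, and ISG20, an exonuclease, had -0.30, -0.18 and 0.13 with adjusted p of 0.259, 0.418 and 0.675 and overlapping groups. The sign of ISG20 turned to -0.039 without si-METTL16 replicate 3.

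A further 9 effectors could not be tested, and several of them are among the most strongly interferon-induced genes of other cell types. A floor of 3 counts corresponds to between 0.167 and 0.192 CPM in these samples, counting error only. GBP1, a GTPase that interferon gamma induces, was below detection, with 0, 2 and 0 counts in si-NC and 0, 0 and 0 in si-METTL16 samples. IFI44L had 0, 3 and 0 counts in si-NC and 0, 0 and 0 in si-METTL16 samples. CMPK2, a mitochondrial nucleotide kinase, had 2, 0 and 3 in si-NC and 0, 0 and 0 in si-METTL16 samples. Its neighbour RSAD2, which encodes viperin, had 0, 4 and 3 in si-NC and 3, 0 and 0 in si-METTL16 samples. IFI44 had 5, 2 and 1 in si-NC and 3, 0 and 1 in si-METTL16 samples. For these 5 genes the counts are at or near the floor in both groups, and no difference was detectable at this depth. IFI27 had 7, 5 and 5 counts in si-NC and 12, 6 and 7 in si-METTL16 samples. TRIM22 had 7, 9 and 9 in si-NC and 0, 6 and 4 in si-METTL16 samples. MX1, the GTPase that blocks influenza virus, had 26, 10 and 0 in si-NC and 19, 4 and 10 in si-METTL16 samples, and its control samples alone ran from 0 to 26.

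**Figure D2:**
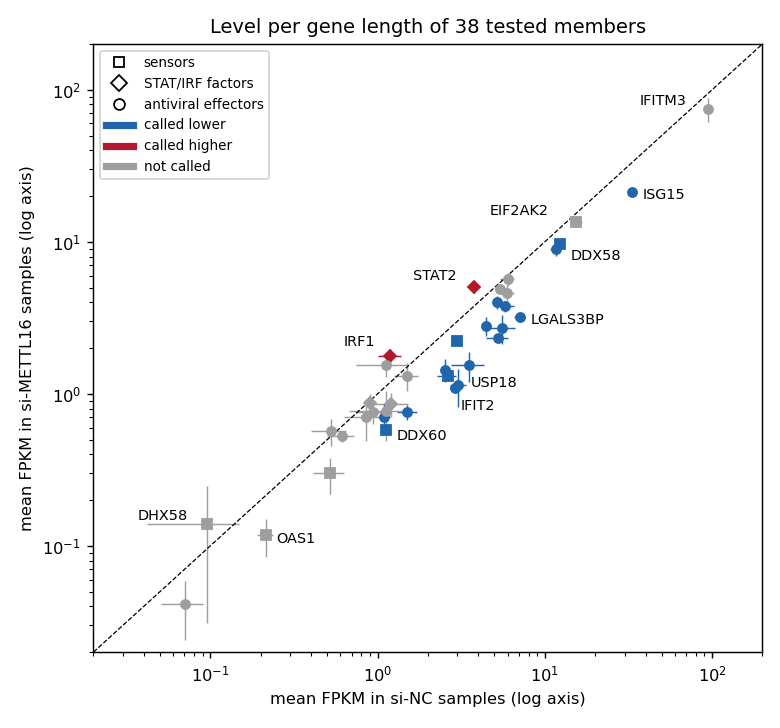
Mean FPKM of each tested member in si-NC (x axis) and si-METTL16 samples (y axis), both on log axes, with SD over 3 samples as bars and equality as the dashed line. Levels run from IFITM3 and ISG15 at the top to DHX58 and XAF1 near the bottom, and the called decreases lie between SP110 and ISG15 in control level.

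Per length, the tested members covered a wide range of control levels. IFITM3 (95.1 ± 3.21 FPKM, SD, n = 3) and ISG15 (33.1 ± 1.16 FPKM) stood highest in si-NC cells. EIF2AK2, DDX58 and TRIM21 followed at 15.4 ± 1.32, 12.3 ± 0.342 and 11.6 ± 0.917 FPKM, of which DDX58 and TRIM21 do not differ beyond their spread. LGALS3BP was at 7.06 ± 0.555 FPKM and IFIT5 at 6.002 ± 0.579 FPKM. STAT2 was at 3.77 ± 0.292 FPKM, IFIT2 at 2.92 ± 0.200 FPKM and IFIH1 at 2.62 ± 0.338 FPKM. At the lower end, OASL was at 0.521 ± 0.112 FPKM, OAS1 at 0.214 ± 0.0245 FPKM, DHX58 at 0.0950 ± 0.0529 FPKM and XAF1 at 0.0708 ± 0.020 FPKM. Called decreases occurred from 1.09 ± 0.0888 FPKM (SP110) and 1.12 ± 0.0391 FPKM (DDX60) up to the level of ISG15, and the uncalled members lay both inside and outside that range.

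Promoter windows of RefSeq on GRCh38.p14 were on hand for 39 of the 49 members, and 1 of them, DDX58, was matched by its newer symbol. The response element core occurred in 29 of these 39 members (74.4%), against 2693 of 27305 genes with a window (9.86%). By window, it occurred in 34 of 52 windows of members (65.4%), against 2847 of 35116 windows in all (8.11%). Members were put on the list as interferon-stimulated genes, so this share describes the list. Of the tested members with a match, 11 of 21 fell and none rose, with a median log2 fold change of -0.36. These 21 include TRIM21, EIF2AK2 and DTX3L, in which no match lay wholly before the start. Of the 9 without a match, 4 fell (DDX58, IFI35, UBE2L6 and SP110), 2 rose (STAT2 and IRF1) and 3 were not called (OAS1, IRF9 and XAF1), with a median of -0.62. Of all 15089 tested genes, 17.5% were called lower and 18.4% higher. The difference between members with and without a match was not tested. IFIT2, USP18, IFITM2, OASL, DHX58, OAS2, IRF7, MX2, TRIM22 and PML had no entry. Of these, IFIT2 and USP18 had the lowest log2 fold changes of all members, -1.39 each. The stretches of the effectors that fell and hold a match before the start, cut in the same way as those of the sensors, show the letters with up to 25 bases on each side. ISG20 and IFIT5, which were not called, are printed as examples, with log2 fold changes of 0.13 and -0.063. HERC5, PARP9, BST2, IFITM1, IFITM3 and NMI, also uncalled with a match before the start, are not printed (-0.54 to 0.47). The printed stretches lie at chr10:89392496-89392554, chr10:89332454-89332512, chr10:89414525-89414567, chr1:1013371-1013429, chr15:88638922-88638980 and chr3:122680785-122680838 on the plus strand (in the order IFIT1, IFIT3, IFIT5, ISG15, ISG20 and PARP14). IFI6 at chr1:27672252-27672310, SAMD9 at chr7:93118082-93118140 and LGALS3BP at chr17:78979948-78980006 are on the minus strand.
IFIT1: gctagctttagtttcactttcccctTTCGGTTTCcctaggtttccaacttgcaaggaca
IFIT3: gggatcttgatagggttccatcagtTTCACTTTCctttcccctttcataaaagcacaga
ISG15: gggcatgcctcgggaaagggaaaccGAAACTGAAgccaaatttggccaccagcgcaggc
IFI6: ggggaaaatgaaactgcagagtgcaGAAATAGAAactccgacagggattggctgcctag
SAMD9: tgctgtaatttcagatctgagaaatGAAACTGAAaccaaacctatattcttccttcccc
LGALS3BP: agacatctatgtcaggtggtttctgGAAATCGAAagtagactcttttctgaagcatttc
PARP14: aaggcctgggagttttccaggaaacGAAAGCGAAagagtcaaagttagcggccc
IFIT5: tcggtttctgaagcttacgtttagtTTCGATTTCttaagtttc
ISG20: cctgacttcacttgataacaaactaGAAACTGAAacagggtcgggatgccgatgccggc
Read in the forward direction of the motif, the nearest match before the start was GAAACTGAA in 7 members, among them ISG15 and SAMD9, which fell, and ISG20, PARP9 and BST2, which were not called. It was GAAACCGAA in DDX60, IFIT1 and IFITM3, of which the first 2 fell. Members with the same letters thus differed in their calls, but differences between these genes were not tested. BST2, at 13 to 43 counts per sample, had a log2 fold change of -0.54, near the -0.62 of ISG15.

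**Figure D3:**
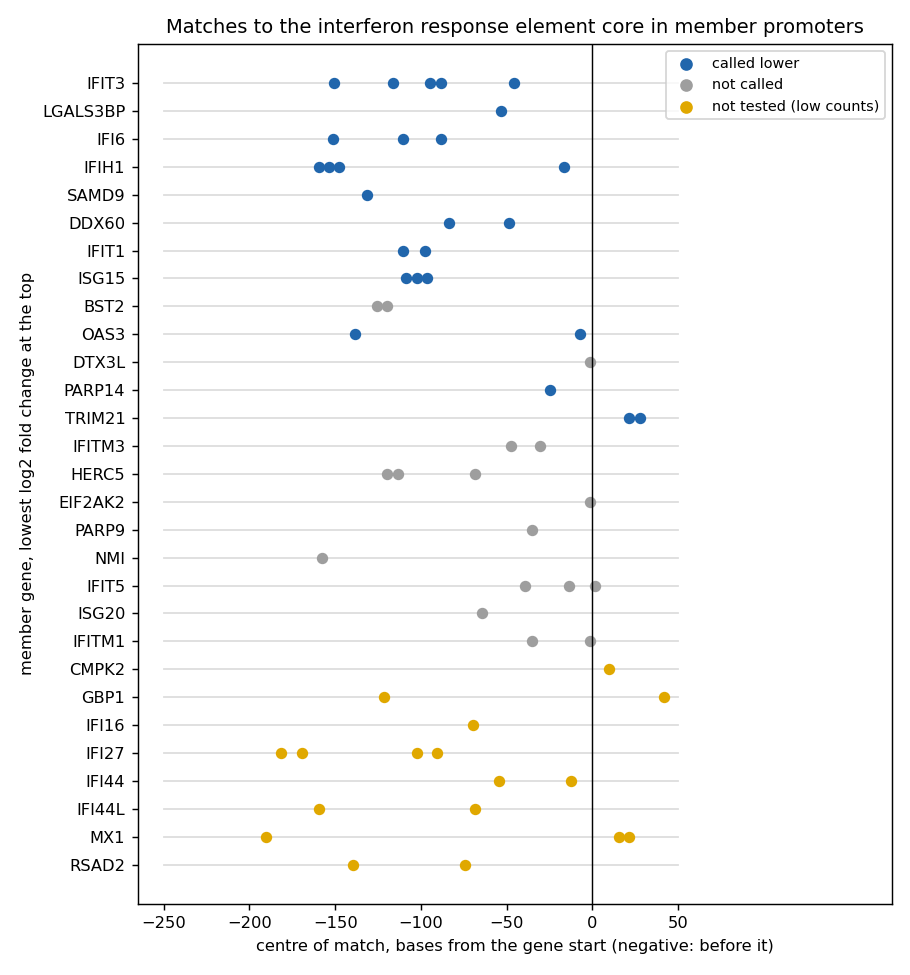
Positions of GAAANNGAA or its reverse complement in the promoter windows of the 29 members that hold a match, as the distance of the centre of the match from the gene start in bases (x axis); rows run from the lowest log2 fold change down, with untested members last. Matches lie mostly before the start, and rows of called and uncalled members both hold single and repeated matches.

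The rest of the interferon pathway was read from a separate list of 68 genes, also chosen with earlier results of these data known. Of these, 43 were tested, 3 fell (6.98%, against 17.5% of all tested genes), 14 rose (32.6%, against 18.4%) and 26 were not called, with a median log2 fold change of 0.13. No interferon gene was tested. IFNB1 was at 0 counts in every sample. IFNE had 1, 1 and 2 counts in si-NC and 1, 6 and 10 in si-METTL16 samples, IFNL1 had 0, 0 and 0 in si-NC and 3, 0 and 1 in si-METTL16 samples, and the remaining 20 ligands, IFNB1 included, stayed under 3 counts in every sample. No ligand thus reached 3 counts in all samples of either group, and their differences were not tested.

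Of the 9 receptor and kinase genes, 1 fell (11.1%) and 2 rose (22.2%), against 17.5% and 18.4% of all tested genes. IFNAR1 (chr21:33324477-33359862), a chain of the type I interferon receptor, was at 143, 148 and 144 CPM in si-NC and 82.2, 92.8 and 91.8 CPM in si-METTL16 samples (log2 fold change -0.71, SE 0.067, adjusted p = 4e-04), or 61.3% of the control level. All silenced samples were below all controls, and the call held in each of the 13 alternative fits. Its partner IFNAR2 had a log2 fold change of 0.14 (95% confidence interval -0.087 to 0.36, adjusted p = 0.301). IFNGR1, a chain of the interferon gamma receptor, and the kinase JAK1 rose, by 0.36 (adjusted p = 0.0146) and 0.25 (adjusted p = 0.012) on the log2 scale. IFNGR2, TYK2, IFNLR1, IL10RB and JAK2 were not called, with -0.31, -0.23, -0.13, 0.092 and 0.49. Every silenced sample was above every control sample for JAK2 (adjusted p = 0.133) and below for TYK2 (adjusted p = 0.122). Such orders were found for 25.7% and 25.2% of all tested genes.

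Of the 4 other signal factors reported here, 1 rose (25%, against 18.4% of all tested genes) and 3 were not called. STAT3, which carries signals of the interleukin 6 family, rose (log2 fold change 0.72, SE 0.063, adjusted p = 0.000314). IRF3, the factor downstream of the sensors, had -0.27 (adjusted p = 0.139), with every silenced sample below every control sample. IRF2 and IRF5 were not called either, and their groups overlapped.

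**Figure D4:**
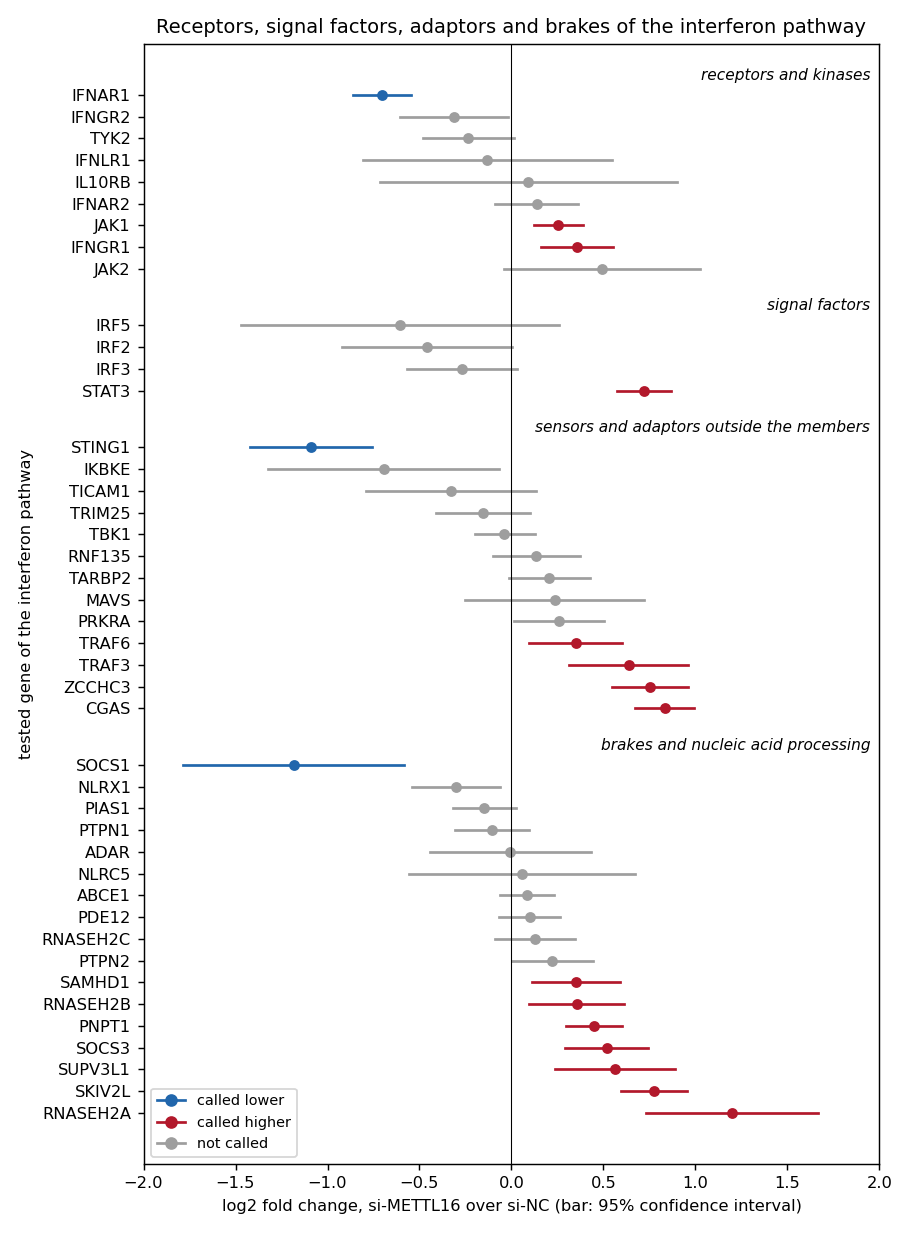
Log2 fold changes (x axis, bars 95% confidence intervals) of the 43 tested pathway genes outside the members, by role, coloured by call. The called decreases of IFNAR1, STING1 and SOCS1 lie left of 0 and 14 called genes lie right of it, with RNASEH2A and CGAS farthest out.

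In the DNA arm, the adaptor fell and the sensor rose. STING1, the adaptor that cGAS activates, was at 9.47, 9.78 and 9.24 CPM in si-NC and 5.06, 4.10 and 4.23 CPM in si-METTL16 samples (log2 fold change -1.09, SE 0.14, adjusted p = 0.00127), or 47.04% of the control level. CGAS, which encodes the DNA sensor itself, was at 39.5, 39.7 and 40.7 CPM and 74.4, 69.05 and 69.99 CPM (log2 fold change 0.83, SE 0.068, adjusted p = 0.000247). For both genes the groups lay far apart. ZCCHC3, a cofactor of cGAS and of the RNA helicases, rose (log2 fold change 0.75, adjusted p = 0.000885), as did the adaptor ligases TRAF3 (log2 fold change 0.64, adjusted p = 0.011) and TRAF6 (log2 fold change 0.35, adjusted p = 0.04). MAVS, the adaptor of RIG-I and MDA5, did not pass the test (log2 fold change 0.24, adjusted p = 0.412), with control samples from 80.3 to 143 CPM. TBK1, the kinase that both arms share, was not called, with a narrow interval of -0.20 to 0.13. IKBKE had -0.69 (adjusted p = 0.0816) and was not called, although every silenced sample was below every control sample. TLR3 and ZBP1 were below detection.

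Among 18 brakes and nucleic acid processing genes, 17 were tested. Of these, 1 fell (5.88%) and 7 rose (41.2%), against 17.5% and 18.4% of all tested genes. SOCS1, an interferon-induced inhibitor of JAK kinases, was at 54, 36 and 48 counts in si-NC and 17, 19 and 23 counts in si-METTL16 samples (log2 fold change -1.18, SE 0.26, adjusted p = 0.0107). It was lower in every silenced sample than in any control sample. Of the subunits of the RNase that cuts RNA paired with DNA, RNASEH2A (log2 fold change 1.20, adjusted p = 0.00368) and RNASEH2B (0.36) rose, and RNASEH2C had 0.13 (adjusted p = 0.326). SAMHD1, which breaks down deoxynucleotides, rose (0.35), as did PNPT1 (0.45) and SUPV3L1 (0.56) of mitochondrial RNA decay, SKIV2L (0.77) of cytosolic RNA decay and the inhibitor SOCS3 (0.52). The phosphodiesterase PDE12 had 0.10 (adjusted p = 0.313), and the DNA exonuclease TREX1 was too low to test, at 5, 8 and 0 counts in si-NC and 0, 0 and 2 counts in si-METTL16 samples. ADAR, which edits double-stranded RNA, was not called, with -0.007 and a wide interval of -0.44 to 0.43. Of the 17 called pathway genes, 4 lost the call in some alternative fit, namely TRAF6, SAMHD1, RNASEH2B and SUPV3L1.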

How the data were processed

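RNA of 6 PANC-1 samples was sequenced, and the 49 members and the 68 pathway genes were chosen with earlier results of these data known. The authors deposited raw counts per gene and FPKM, the count divided by gene length and sample total. The submitters' processing notes name HISAT2 2.0.4, StringTie 1.3.0 and GRCh38 (hg38) without giving their role. The counting program, the annotation release and the use of strand are not given in the sources used here. Counts per sample summed to between 15725298 and 18054436, and precision for single genes is limited by 3 replicates per group and a common biological coefficient of variation of 16.5%.

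From the counts, genes were filtered with filterByExpr (minimum count 10, minimum total count 15), scaled by TMM and compared by the quasi-likelihood test of edgeR 4.0.16 (R 4.3.3) over 15089 genes. P-values were adjusted by the Benjamini-Hochberg method, and 0.05 was the threshold. The methods of the study name limma, which was run as an alternative because raw counts call for a count test. With 3 samples against 3, the smallest p of an exact permutation test is 0.1. Below detection means that no sample reached 3 counts, and low that the filter was not passed. Every member was named, with each sample's values for called members, tested sensors and STAT/IRF factors and members with non-overlapping groups and a log2 fold change of 0.5 or more in either direction. Replicates were compared first, and no pair was a duplicate (chi-square per degree of freedom at least 15.9 within groups).

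The alternatives were a replicate block, each sample left out, no filter, a minimum of 10 counts in all samples, scaling by DESeq2 in the edgeR fit, the DESeq2 1.42.0 Wald test, and limma 3.58.1 on voom values and on log2(FPKM + 1), the last over genes whose mean FPKM reached 1. Scripts were tested on simulated data. Promoters came from RefSeq (GRCh38.p14) and shared 50-base stretches and overlaps from GENCODE v44, in which 9 of 49 members have the start and end of the deposited table. They were searched with Python 3.11.15 and pandas 2.3.3. All coordinates of genes are those of the deposited table. Some genes of the pathway are not reported here. No deposited column of values was left out.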

Additional observations from a re-analysis of the deposited data

How the results depend on the processing

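Between 15 and 19 members were called lower under the 13 alternatives, against 18. Of the 20 called members, 15 kept their call and direction under every alternative that tested them, 14 of them lower. The other 5 (DDX58, IRF1, PARP14, SP110 and TRIM21) lost it in at least 1. Members called higher numbered 1 with the replicate block and 1 to 2 when a sample was left out, since IRF1 lost its call, against 2. The deviations of same-numbered samples correlated at 0.025, 0.037 and 0.03, which gives no sign of pairing. Samples of different number were not compared in this way, so the values do not settle whether the samples were paired. With the replicate block 18 members were called lower. Pathway genes called lower numbered 1 with limma on log2(FPKM + 1), where STING1 and SOCS1, under a mean FPKM of 1, were not fitted, against 3. In that fit 26 members were tested and 17 were called lower. Signs turned for genes that were not called. With a sample left out, DHX58 ranged from -0.13 (without si-METTL16 replicate 3) to 1.10, ISG20 from -0.039 (without si-METTL16 replicate 3) to 0.34, and IRF7 from -0.10 to 0.094 (without si-METTL16 replicate 2), with 0.007 without si-NC replicate 1. The cause of these turns was not tested. METTL16 kept its direction and call in all 13. Depth limits the 11 untested members. The unknown use of strand and shared reads may limit DDX58, IRF1, IRF9, IFIT2, IFI6, XAF1, SP110, the IFITM genes and USP18 most.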
